A study of Mus musculus with 4 samples.

Results

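The 10 genes described here encode transcription factors that direct blood progenitors to granulocytes or monocytes. They were taken by name from a list of C/EBP factors and other regulators of these fates: *Cebpa*, *Cebpb*, *Cebpd*, *Cebpe*, *Spi1*, *Gfi1*, *Irf8*, *Klf4*, *Runx1* and *Id2*. All 10 were measured, each by 1 probe set that names no other gene, among 19938 genes in all. RNA came from Ly6G+ cells of the bone marrow, called myeloid-derived suppressive cells (MDSCs), of 5 months old mice, and was read on 4 Affymetrix Mouse Gene 1.0 ST arrays. The 2 arrays of wild type (*lal+/+*) mice and the 2 arrays of lysosomal acid lipase knock-out (*lal−/−*) mice share a strain background, FVB/N after 10 generations of backcrossing. No drug or other agent is named for either genotype, and neither source restricts the knock-out to a cell type. The labels call the cells CD11b and Gr-1 positive, while the methods describe magnetic selection for Ly6G.

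C/EBP factors are basic leucine zipper proteins that bind DNA as dimers. C/EBPα is needed for progenitors to enter the granulocyte and monocyte path, C/EBPβ acts when granulocytes are produced on demand, and C/EBPε drives late granulocyte maturation, in which the genes of secondary granules are switched on. PU.1, encoded by *Spi1*, is an Ets factor needed for both myeloid fates. Gfi1 is a repressor needed for neutrophils, whereas Irf8 and Klf4 favor monocytes, and Irf8 is also made by B cells and dendritic cells. Runx1 binds DNA with its partner CBFβ, and Id2 has no DNA-binding region of its own and holds E proteins off DNA.

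Promoter windows from RefSeq (GRCm38.p6), which run from 250 bases before to 50 after a gene start, were held for 7 of the 10 genes: *Cebpa*, *Cebpb*, *Gfi1*, *Irf8*, *Klf4*, *Runx1* and *Id2*. Those of *Id2* and *Irf8*, which differed in opposite directions between the genotypes, are shown 5′ to 3′ with CCAAT boxes on either strand (CCAAT or ATTGG) in capitals. The CCAAT box gave the C/EBP family its name, although the factor known to bind it is NF-Y. This motif was added to the search after the other results were seen, and 37.4% of all 32851 windows hold it.
Id2, chr12:25096043-25096342, minus strand: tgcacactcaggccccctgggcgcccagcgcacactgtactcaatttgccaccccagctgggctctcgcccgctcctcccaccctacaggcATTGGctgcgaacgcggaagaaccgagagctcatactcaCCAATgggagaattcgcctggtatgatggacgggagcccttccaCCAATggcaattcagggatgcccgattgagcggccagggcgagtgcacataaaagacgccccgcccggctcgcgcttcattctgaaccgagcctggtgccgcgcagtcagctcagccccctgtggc
Irf8, chr8:120736108-120736407, plus strand: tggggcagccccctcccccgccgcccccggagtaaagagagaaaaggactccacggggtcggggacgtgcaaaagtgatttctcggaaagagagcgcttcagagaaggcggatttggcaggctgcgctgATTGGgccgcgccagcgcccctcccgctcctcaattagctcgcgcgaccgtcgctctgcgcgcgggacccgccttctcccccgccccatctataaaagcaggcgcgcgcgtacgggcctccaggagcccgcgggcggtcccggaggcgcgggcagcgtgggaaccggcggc
The *Id2* window held 3 CCAAT boxes and this window of *Irf8*, the first of 2 starts, held 1. Neither held the C/EBP motif TTGCNNAA, the PU.1 motif GAGGAAG, the Runx motif TGTGGTT, the Irf motif GAAANNGAAA or the E box CACGTG on either strand.
Among the windows of the other genes, *Gfi1* held the C/EBP motif 143 bases before its start, and *Runx1* held the Runx motif at 2 places, 27 and 35 bases after its distal start. *Klf4* and *Runx1* each held 1 E box. The CCAAT box lay in windows of 3 of the 7 genes, *Id2*, *Irf8* and *Runx1*. The share of all windows with the motif was 10.8% for C/EBP, 13.6% for PU.1, 5.27% for Runx, 3.44% for Irf and 7.15% for the E box. The *Gfi1* match is shown in capitals.
Gfi1, chr5:107725921-107725968, minus strand: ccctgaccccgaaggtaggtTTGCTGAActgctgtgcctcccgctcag

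*Lipa*, which encodes lysosomal acid lipase, read 9.50 and 9.05 in *lal+/+* and 7.37 and 7.49 in *lal−/−* cells on the log2 scale. The selection antigen gene *Ly6g* read 10.19 and 9.80 against 12.91 and 12.84. The methods name more mice for the cell isolation than there are arrays, and do not say which mice each array held or whether mice were pooled. The p-values therefore rest on array-to-array spread alone, part or all of which may be technical. Of the markers of other cells, all 9 of the measured B cell genes were lower in *lal−/−* cells, with a mean log2 level of 9.58 and 9.39 in *lal+/+* and 6.22 and 6.07 in *lal−/−* cells, and *Ms4a1*, *Cr2* and *Fcer2a* lay within the range of silent genes there. Of 10 monocyte and macrophage markers 7 were lower, with mean levels of 8.90 and 8.75 against 6.96 and 7.03, and *Mrc1*, *C1qb* and *C1qc* lay in the silent range of the *lal−/−* arrays. All 5 promyelocyte markers were higher, with mean levels of 5.68 and 5.66 against 8.83 and 8.75, and all 5 lay in the silent range of the *lal+/+* arrays. The silent range ends at the 95th percentile of 1035 probe sets of olfactory receptor genes, 6.79 in *lal+/+* and 6.29 in *lal−/−* cells. Of the defining neutrophil markers 6 of 12 were higher and 1 lower. 1 of 6 dendritic cell, 2 of 4 plasma cell and 3 of 8 T and NK cell markers were lower, 1 of the last was higher, and 2 of 6 eosinophil, basophil and mast cell, 1 of 4 megakaryocyte and 0 of 5 erythroid markers were higher. Some of these calls depended on the setting. With a common median the macrophage markers *Csf1r* (-0.93) and *Cx3cr1* (-0.91) and the plasma cell marker *Jchain* (-0.80) were below 2-fold. Without *lal+/+* replicate 2 the megakaryocyte marker *Ppbp* was at 0.88 and *Cx3cr1* at -0.95. Leaving out a *lal−/−* array also cost *Ppbp*, *Cx3cr1*, *Cd3e*, *Mcpt8* and *Itgam* the call, each with a change still beyond 2-fold. For *Ppbp* and *Cx3cr1* this held for either *lal−/−* array.

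Expression of *Cebpe*, *Spi1* and *Id2* was increased at least 2-fold in *lal−/−* MDSCs, and none of the 10 factors was decreased by that much. A call needed a fold of at least 2 and an adjusted p under 0.05 (limma, Benjamini-Hochberg over all probe sets that name 1 gene). 3 of the 10 factors were called higher and 0 lower, where 7.43% of all genes were called higher and 3.13% lower. By the adjusted p alone 6 of the 10 passed, which adds *Cebpd* and *Gfi1* on the higher side and *Irf8* on the lower side, against 22.1% of all genes. The adjusted p of these further 3 exceeded 0.05 whichever array was left out (0.0523 to 0.165, limma). The arrays of the genotypes did not overlap for 7 of the 10, against 65.7% of all genes, and with *lal−/−* higher for 6 and lower for 1, against 41.6% and 24.1%. A count of 7 is near that background. The median log2 fold change was 0.64 over the 10 factors and 0.08 over all genes. In RNA of a whole preparation, fewer cells of a type and less RNA per cell cannot be told apart, nor can more cells and more RNA per cell. The cell type markers given above differed on the same arrays, and their part in the rises of *Cebpe*, *Spi1* and *Id2* was not tested.

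**Figure D1:**
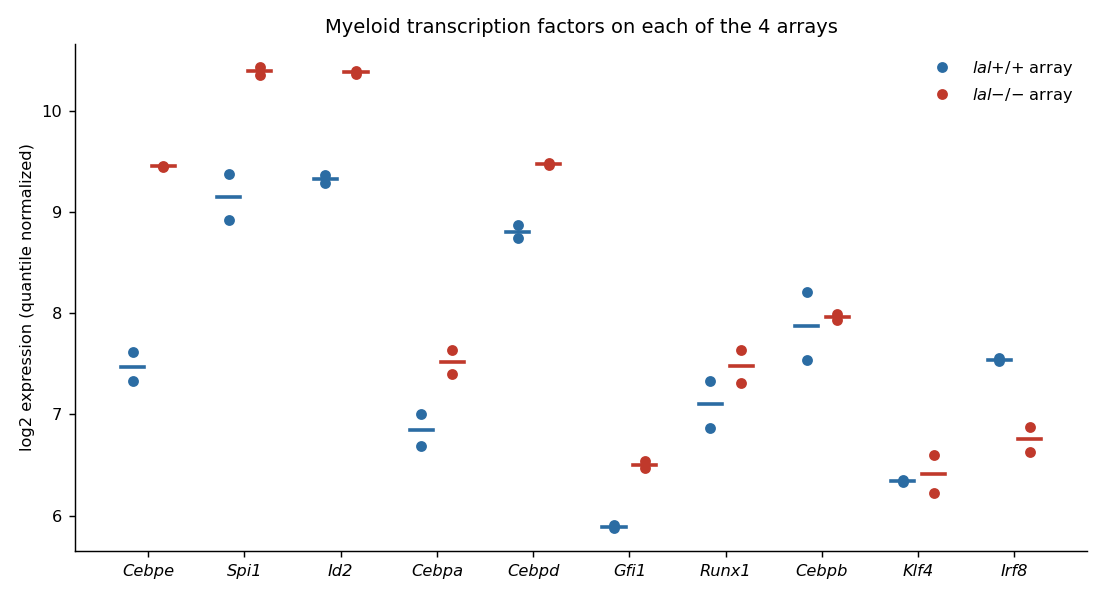
Log2 expression (y axis, quantile normalized) of the 10 factors (x axis) on each *lal+/+* and *lal−/−* array, with a bar at the mean of the 2 arrays of a genotype. *Cebpe* separates most widely, from at most 7.62 to at least 9.45, and the arrays overlap for *Cebpb*, *Klf4* and *Runx1*; heights of different genes are not comparable, since their probe sets differ.

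Among the C/EBP factors, *Cebpe* changed most. It read 7.33 and 7.62 in *lal+/+* and 9.46 and 9.45 in *lal−/−* cells. Both *lal−/−* arrays lay above both *lal+/+* arrays by at least 1.83, against an SD of 0.20 in *lal+/+* and 0.01 in *lal−/−* cells (n = 2 each). This was a 3.95-fold increase (log2 fold change 1.98 ± 0.15 SE, limma adjusted p = 0.00341), larger than that of 98.9% of all genes. *Cebpe* stayed called when any 1 array was left out, with a log2 fold change between 1.84 and 2.13.
*Cebpd*, a C/EBP gene known from acute responses, read 8.74 and 8.87 in *lal+/+* and 9.46 and 9.48 in *lal−/−* cells. The arrays did not overlap, and the level was 1.59-fold higher (log2 fold change 0.66 ± 0.12 SE, limma adjusted p = 0.0226), short of 2-fold. When every array was brought to the same median the log2 fold change was 1.27, and with the values as deposited it was 1.09, and *Cebpd* was called in both. With quantile normalization over the probe sets that name 1 gene it was 0.40 and did not pass (limma adjusted p = 0.102).
*Cebpa* read 7.01 and 6.69 in *lal+/+* cells and 7.40 and 7.63 in *lal−/−* cells. The arrays did not overlap, yet its log2 fold change of 0.66 did not pass the test (SE 0.17, limma adjusted p = 0.0556). Its 95% interval ran from 0.22 to 1.11. When variances were moderated over the probe sets that name 1 gene only, the adjusted p from limma was 0.0197, still with a change below 2-fold. It was 0.0220 in limma with a common median. With quantile normalization over the probe sets that name 1 gene it was 0.107, and with a replicate block 0.118. *Cebpa* was called in none of the settings.
*Cebpb* read 7.54 and 8.21 on the *lal+/+* arrays, a gap wider than that between any *lal+/+* and any *lal−/−* array of this gene. The *lal−/−* arrays, at 7.99 and 7.93, fell between them. The log2 fold change was 0.09 with a 95% interval from -0.55 to 0.73, which holds changes of about that size in either direction. It was -0.25 without *lal+/+* replicate 1 and 0.42 without *lal+/+* replicate 2.

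PU.1 and Runx1 act from the progenitor stage onward. *Spi1* read 9.38 and 8.92 in *lal+/+* and 10.44 and 10.36 in *lal−/−* cells. The *lal−/−* arrays lay above both others by at least 0.98, against an SD of 0.32 in *lal+/+* and 0.05 in *lal−/−* cells (n = 2 each). This was a 2.38-fold increase (log2 fold change 1.25 ± 0.19 SE, limma adjusted p = 0.0139). With a common median the log2 fold change was 1.87. With quantile normalization over the probe sets that name 1 gene it was 1.0012, only just above the fold threshold, and *Spi1* was still called. At an adjusted p under 0.01 *Spi1* was not called. The call was lost without *lal−/−* replicate 1 (limma adjusted p = 0.0825) and without *lal−/−* replicate 2 (adjusted p = 0.0750), though the log2 fold change stayed between 1.02 and 1.48 whichever array was left out.
*Runx1* read 7.33 and 6.87 in *lal+/+* and 7.31 and 7.64 in *lal−/−* cells. These overlap, and the log2 fold change of 0.38 did not pass (SE 0.22, limma adjusted p = 0.284, 95% interval -0.19 to 0.94). *Cbfb*, which encodes its partner, differed by 0.28 on the log2 scale (limma adjusted p = 0.209).

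*Id2* read 9.37 and 9.29 in *lal+/+* and 10.37 and 10.40 in *lal−/−* cells. The arrays did not overlap, and their SD was 0.06 in *lal+/+* and 0.02 in *lal−/−* cells (n = 2 each). The increase was 2.08-fold (log2 fold change 1.06 ± 0.12 SE, limma adjusted p = 0.00659). It lay close to the fold threshold, and with quantile normalization over the probe sets that name 1 gene it was 0.82 and not called, while with a common median it was 1.69. Without *lal−/−* replicate 1 or 2 the adjusted p from limma was 0.0566 and 0.0587.

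Of the factors known for opposing roles, Gfi1 on the neutrophil side and Irf8 and Klf4 on the monocyte side, none passed both thresholds. *Gfi1* read 5.88 and 5.90 in *lal+/+* cells, within the silent range, and 6.54 and 6.47 in *lal−/−* cells. The latter lay just above the limit of the *lal−/−* arrays (6.29) but below that of the *lal+/+* arrays (6.79). The arrays did not overlap, and the level was 1.53-fold higher (log2 fold change 0.61 ± 0.12 SE, limma adjusted p = 0.0250).
*Irf8* was the factor with the lowest fold change. It read 7.55 and 7.52 in *lal+/+* and 6.63 and 6.88 in *lal−/−* cells, 1.72-fold lower without overlap (log2 fold change -0.78 ± 0.14 SE, limma adjusted p = 0.0210). Only 4.87% of all genes had a lower value. In the 3 other scalings its log2 fold change was between -0.96 and -0.59. Without 1 array it ran from -0.91 to -0.66, where the sign could not turn, since the arrays did not overlap. The B cell markers and the monocyte and macrophage markers given above moved the same way, and their part in the lower *Irf8* level was not tested.
*Klf4* read 6.35 and 6.34 in *lal+/+* cells, within the silent range, and 6.23 and 6.60 in *lal−/−* cells, with overlap. Its log2 fold change of 0.07 (95% interval -0.37 to 0.51) changed sign in other settings, for example to -0.09 with the values as deposited.

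**Figure D2:**
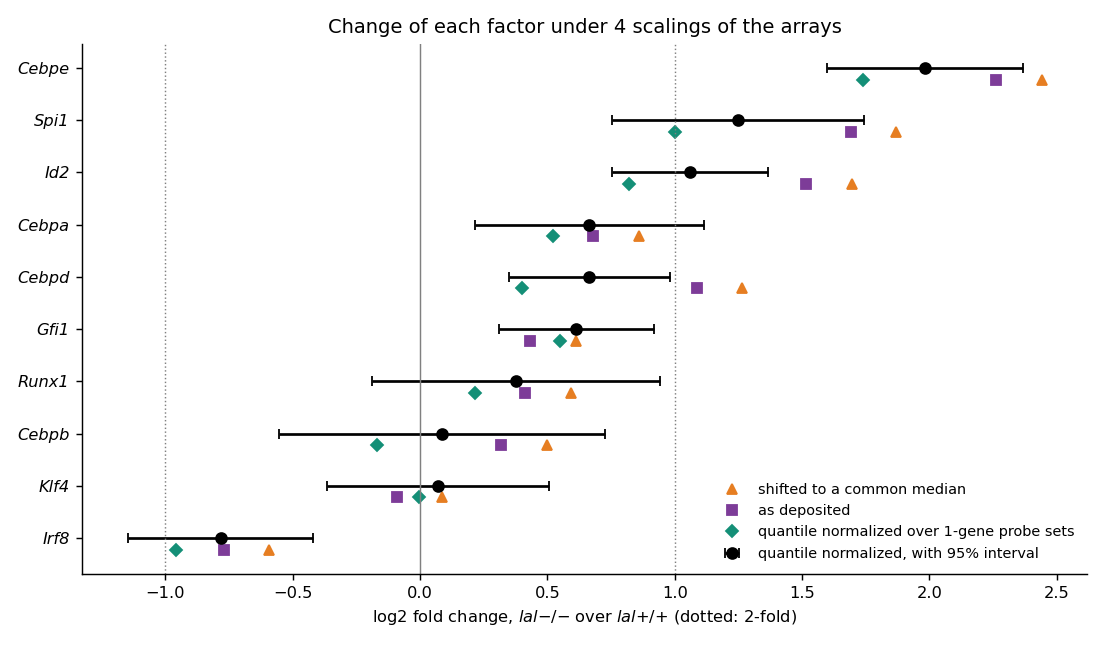
Log2 fold change of *lal−/−* over *lal+/+* (x axis) for each factor (y axis), with black points and 95% intervals from limma for the main scaling and colored marks for 3 other scalings. *Cebpe* lies beyond 2-fold (dotted lines) in all 4 scalings, from 1.74 to 2.44. *Spi1* does so too, from 1.0012 to 1.87, but its lowest value lies almost on the dotted line. *Id2* and *Cebpd* cross the dotted line between scalings, and *Irf8* stays below 0.

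A difference between a pair of factors within an array does not depend on a shift of the whole array. The level of such a difference means nothing, because probe sets differ in brightness, but its change between genotypes can be read. *Cebpe* minus *Irf8* was -0.22 and 0.09 in *lal+/+* and 2.83 and 2.57 in *lal−/−* cells, a change of 2.77 (standard error 0.20) or 6.80-fold. *Gfi1* minus *Irf8* was -1.68 and -1.62 against -0.09 and -0.41, a change of 1.40 (standard error 0.16), with *Gfi1* in the silent range of the *lal+/+* arrays. Neither *Gfi1* nor *Irf8* was called by itself.
As *Cebpe* had the largest fold change of the 10 factors, every pair with it had to change toward it. *Irf8* had the lowest, so *Gfi1* minus *Irf8* had to rise and *Cebpe* minus *Irf8* had to move most. Only the size of these changes is given. The change of *Cebpe* against *Klf4* was 1.91 (standard error 0.25), against *Cebpb* 1.90 (standard error 0.19) and against *Cebpa* 1.32 (standard error 0.33). *Cebpa* minus *Spi1* changed by -0.58 (standard error 0.17), with -2.37 and -2.23 in *lal+/+* cells and -3.04 and -2.73 on the *lal−/−* arrays. With the values as deposited this last change was -1.01, and a common median gives the same, since a shift cancels within a pair. Each of the 6 pairs kept its direction in the main scaling, as deposited and with quantile normalization over the probe sets that name 1 gene. An exact two-sided permutation test of 2 against 2 arrays cannot give a p below 0.333, so these pairs are given as values.

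**Figure D3:**
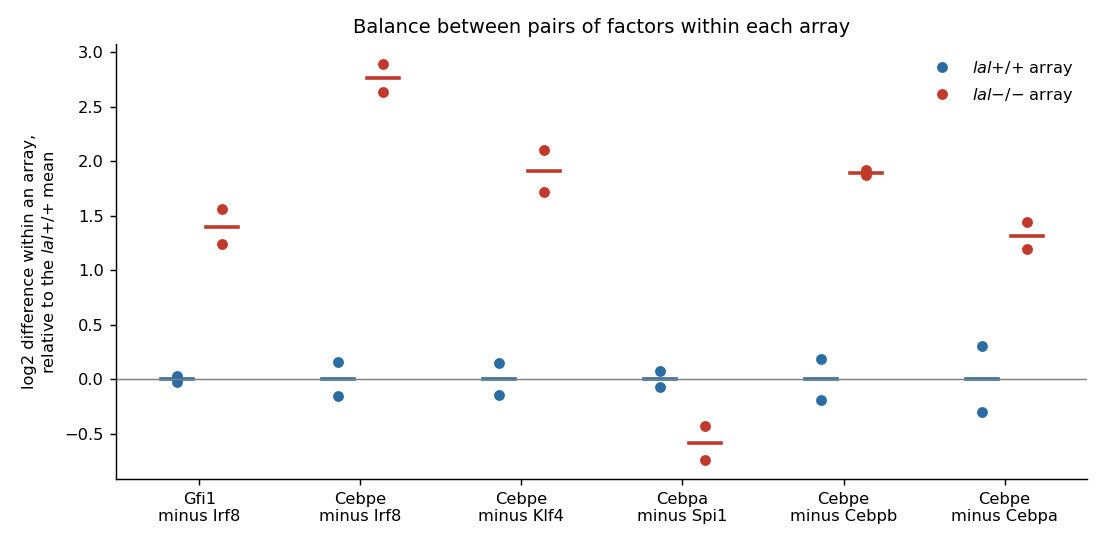
Difference in log2 expression between 2 factors within an array (y axis), with the *lal+/+* mean of each pair set to 0, for 6 pairs (x axis); points are arrays and bars are means of the 2 arrays. *Cebpe* minus *Irf8* moved most, by 2.77, as it had to, since these had the highest and lowest fold change of the 10 factors. *Cebpa* minus *Spi1* moved the other way, by -0.58.

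The genes whose pattern over the 4 arrays lay nearest to that of *Cebpe*, by Euclidean distance of log2 values centered on each gene's mean among 19937 others, were *Tmem38b* (distance 0.06, log2 fold change 1.95), *Sqor* (0.09, 1.90) and *Adat2* (0.09, 2.04). With 4 arrays this is a description of a shared size of change.

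Of 12 genes known as targets of C/EBP factors in granulocytes, 8 were higher in *lal−/−* MDSCs, 1 was lower and 3 were not called. Of all genes 7.43% were higher and 3.13% lower. The median log2 fold change of the 12 was 1.25 against 0.08 over all genes. What part *Cebpe* has in this was not tested. Earlier results of these arrays on granule genes were known when the list was written, so the list is no independent evidence of direction. Those with the largest increases were *Mpo*, of myeloperoxidase (3.75), the proteases *Prtn3* (2.21) and *Elane* (2.20), and *Itgb2l*, an integrin-like gene of neutrophils (1.90). *Ltf*, of lactoferrin in secondary granules, read 11.84 and 11.69 in *lal+/+* and 13.48 and 13.38 in *lal−/−* cells (1.67). *Csf3r*, of the receptor for granulocyte colony-stimulating factor, went the other way, from 10.95 and 10.92 to 8.96 and 9.10 (-1.91). The promyelocyte markers, which include *Mpo*, *Elane* and *Prtn3*, moved with this list, and their part was not tested. *Mpo*, *Prtn3*, *Elane* and *Itgb2l* lay in the silent range of the *lal+/+* arrays, so their fold changes are measured against a level not above background.
Promoter windows were held for all 12 of these genes. The C/EBP motif lay in 4 of them, *Lcn2*, *Ltf*, *Mmp8* and *Ngp*, and the PU.1 motif in 7, against 10.8% and 13.6% of all windows. The C/EBP matches are shown in capitals as examples of the motif. Of the 4 genes with it, 3 were called higher, all but *Ngp* (log2 fold change 0.76), and of the 8 without it 5 were, *Camp*, *Itgb2l*, *Mpo*, *Elane* and *Prtn3*, so that calls were about as common in both. A match describes letters only and shows no binding.
Ltf, chr9:111019197-111019244, plus strand: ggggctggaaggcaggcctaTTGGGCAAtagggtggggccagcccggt
Lcn2, chr2:32387928-32387975, minus strand: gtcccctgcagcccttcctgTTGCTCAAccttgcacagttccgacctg
Mmp8, chr9:7558390-7558437, plus strand: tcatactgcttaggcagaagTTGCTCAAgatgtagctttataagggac
Ngp, chr9:110419650-110419824, plus strand: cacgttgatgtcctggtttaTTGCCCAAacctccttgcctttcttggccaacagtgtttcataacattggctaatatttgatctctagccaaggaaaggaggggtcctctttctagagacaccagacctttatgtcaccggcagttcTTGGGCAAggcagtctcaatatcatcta

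Known target genes of PU.1 and Irf8 did not move one way. Of 9 measured, 2 were higher, *Cybb*, of the phagocyte oxidase (1.40), and *Itgam*, of CD11b (1.19), and 2 were lower, *Ctss*, of cathepsin S (-2.10), and *Csf1r*, of the receptor for macrophage colony-stimulating factor (-1.43). The median log2 fold change was 0.01. Of these 9, 3 were higher and 1 lower with a common median, and with quantile normalization over the probe sets that name 1 gene 1 was higher and 2 lower. *Csf1r* is also a macrophage marker, and with a common median its change of -0.93 was below 2-fold.

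Other factors of the same families and fates were compared in 11 lists. Of 110 measured genes 6 were higher and 14 lower, which is 5.45% and 12.7%, beside 7.43% and 3.13% of all genes. Of the 14 lower genes 6 were lymphoid factors. This balance depended on the scaling. With a common median 17 were higher and 12 lower, as deposited 11 and 14, and with quantile normalization over the probe sets that name 1 gene 4 and 17. The median of their log2 fold changes was 0.04, beside 0.08 for all genes.
Among the Ets relatives of PU.1, 1 of 14 was higher and 2 were lower, but 5 were higher and 2 lower with a common median, and 3 and 2 with the values as deposited. *Erg*, a stem cell and endothelial factor, read 6.20 and 6.41 in *lal+/+* and 8.52 and 8.58 in *lal−/−* cells (log2 fold change 2.24, limma adjusted p = 0.00271). *Spic*, known from red pulp and bone marrow macrophages, read 9.97 and 9.82 against 5.78 and 5.59 (-4.21), and *Spib*, known from B cells and plasmacytoid dendritic cells, fell by 1.13 on the log2 scale. *Erg* lay within the silent range in *lal+/+* cells, *Spic* in *lal−/−* cells and *Spib* in both, and B cell and macrophage markers were lower on the same arrays. What part these cells have in the result was not tested.
Of 13 measured partners and regulators of C/EBP factors 0 were higher and 1 was lower, *Trib2*, a pseudokinase that targets C/EBPα for degradation (-1.13), whereas with a common median 3 were higher and 0 lower, and as deposited 2 and 1. *Cebpg*, of a C/EBP without an activating region, had a log2 fold change of -0.10. Of the 7 other Irf genes, *Irf4*, known from lymphocytes, was lower (-1.32) and 0 were higher. 0 of 11 genes of the Gfi1 corepressor complex and the opposing Egr factors and 0 of 5 Runx partners were called in either direction at these thresholds. With a common median 2 genes of the Gfi1 and Egr list were higher, and with the values as deposited 1 was, while 1 Runx partner was lower with quantile normalization over the probe sets that name 1 gene.
Among the E proteins that Id2 holds in check, *Tcf4* was lower (-1.03), *Tcf12* had a log2 fold change of -0.97, just short of 2-fold, and *Tcf3* one of 0.12. The other Id genes, *Id1* (0.77), *Id3* (-0.39) and *Id4* (0.20), were not called. In this list 1 gene was higher and 0 lower with a common median. As deposited 0 were higher and 1 lower, which was not *Tcf4* (-0.92, not called). With quantile normalization over the probe sets that name 1 gene 0 were higher and 2 lower. Of 12 other Klf genes *Klf5* alone was higher (1.03), where 2 were with a common median and 0 with quantile normalization over the probe sets that name 1 gene, and of 8 measured monocyte, macrophage and dendritic cell factors *Zeb2* alone was called, as lower (-1.40).
Of 11 granulocyte maturation and signal factors 3 were higher, *Nfe2*, a basic leucine zipper factor (1.88), and the Myc network genes *Mxd1* (1.35) and *Max* (1.11), and *Lef1* was lower (-1.16). Of 11 stem and progenitor factors, *Myb* read 6.32 and 6.03 against 7.77 and 7.98 (1.70), with the *lal+/+* level in the silent range, and *Myc* read 9.30 and 9.12 against 7.11 and 7.40 (-1.96). 6 of 12 measured lymphoid factors were lower and 0 higher, led by *Ebf1* (-4.25), *Ikzf3* (-3.98), *Pax5* (-2.26) and *Bcl11a* (-1.91), all known from B cells, whose markers were lower as well. *Ebf1*, *Ikzf3* and *Irf4* lay in the silent range of the *lal−/−* arrays.
Of these 20 called factors, 4 lost the call under another scaling, and more lost it when 1 of the arrays was left out. The sign of each stayed the same under the other scalings. Leaving out 1 array cannot turn a sign where the arrays of the genotypes do not overlap. *Irf4* lost the call whichever array was left out (-1.62 to -1.02). *Spib*, *Klf5*, *Tcf4* and *Trib2* each lost it in 3 of the 4 cases, with *Trib2* at -0.91 without *lal+/+* replicate 2, *Klf5* at 0.95 and *Tcf4* at -0.87 without *lal+/+* replicate 1, and *Spib* at -0.94 without *lal−/−* replicate 2. Without either *lal−/−* array the limma adjusted p was at most 0.0685 for *Lef1*, 0.0514 for *Mxd1* and 0.0546 for *Max*. It was 0.0570 for *Zeb2* without *lal−/−* replicate 1, and 0.0507 for *Foxo1* and 0.0578 for *Pou2af1* without *lal−/−* replicate 2. With a common median *Trib2* was at -0.97 and *Tcf4* at -0.74, and with quantile normalization over the probe sets that name 1 gene *Klf5* was at 0.81 and *Max* at 0.97, all below 2-fold. Among the target genes, *Lcn2* lost its call without either *lal−/−* array (limma adjusted p = 0.0565 and 0.0514), and *Itgam* without *lal−/−* replicate 2 (0.0533). *Itgam* was also below 2-fold, at 0.97, with quantile normalization over the probe sets that name 1 gene.

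**Figure D4:**
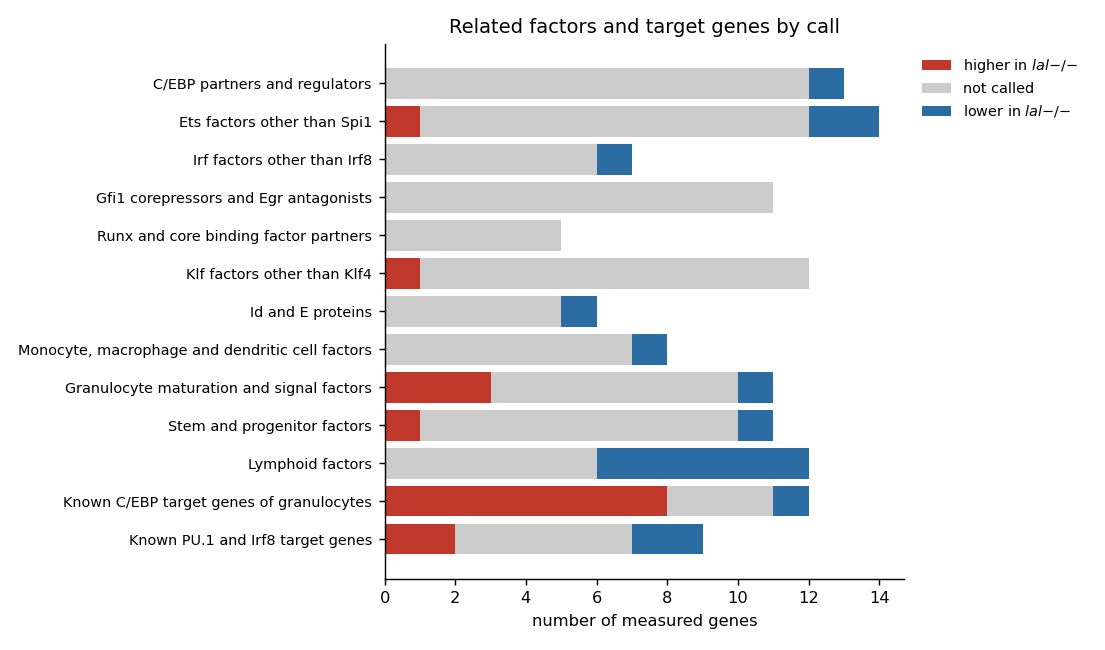
Number of measured genes (x axis) in each of 13 lists of related factors and target genes (y axis), split into genes called higher in *lal−/−* cells, not called, and called lower. Known C/EBP targets stand out by 8 higher genes of 12, and lymphoid factors by 6 lower genes of 12; both kept at least these counts in the 4 scalings, while the counts of the Ets, C/EBP partner, Gfi1, Runx, Klf, Id, granulocyte maturation and PU.1 target lists moved with the scaling.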

How the data were processed

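Per the labels and methods, the authors made the deposited log2 values by RMA in Partek Genomics Suite from 4 Mouse Gene 1.0 ST scans, and the labels name GCOS 1.1. Of 35557 probe sets, 21789 name 1 gene and 1621 name several, which were not used. The column medians differed by up to 0.208, above a limit of 0.1, so the arrays were quantile normalized over all probe sets. RMA and this step assume like overall distributions, which can move a fold change. Genotype was fitted with limma 3.58.1 in R 4.3.3 to all probe sets (degrees of freedom 2.71 prior, 2 residual), with Benjamini-Hochberg adjustment over those that name 1 gene. Where a gene had several probe sets the brightest was used. The fit and its thresholds were tested on simulated data with known changes, while the scaling of the arrays and the choice of probe sets were not. All 10 factors, *Lipa*, *Ly6g*, at most 4 called genes of each list in each direction and 3 genes near the most changed factor are named, with some further members of lists by their values. The factors and lists were chosen with earlier results of these data known. 2 arrays a genotype limit the precision. The methods' tissue term cannot be fitted to 1 tissue. Whether arrays with the same replicate number were paired is not stated, and the correlation of -0.16 between their deviations cannot settle it. Alternatives were other scalings, filters, variance models, thresholds, blocks and leaving out each array.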

Additional observations from a re-analysis of the deposited data

How the results depend on the processing

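The number of factors called higher was 3. It was 4 after bringing the arrays to a common median or with the values as deposited, and 2 with quantile normalization over the probe sets that name 1 gene or at an adjusted p under 0.01. Without a fold threshold 5 factors were higher and 1 lower, as 3053 and 1357 of all genes were. An ordinary linear model, with 2 residual degrees of freedom, called 0 factors and 0 genes higher or lower, while 6 factors and 5691 genes had an unadjusted p under 0.05 in it. Leaving out 1 array gave 1 to 3 factors higher and 0 lower, and 764 to 1647 genes higher and 366 to 617 lower, against 1482 and 625 with all arrays. With a common median 2615 genes were higher. The share of higher genes among those called was 70.3% in the main scaling, 85.1% with a common median, 76.3% as deposited and 54.9% with quantile normalization over the probe sets that name 1 gene, and all genes together had a median of 0.08, 0.12, -0.05 and 0.01 on the log2 scale. *Cebpb* ran from -0.25 to 0.42 when 1 array was left out, negative without *lal+/+* replicate 1, and turned to -0.17 with the last of these scalings. *Klf4* ran from -0.12 to 0.26, negative without *lal−/−* replicate 2, and turned to -0.0913 as deposited and to -0.00397 with the last scaling. With a replicate block 3 factors, 1439 genes higher and 596 lower were called, and with a crossed block, added with the last scaling and a variance setting after the data were seen, 3 factors, 1488 genes higher and 631 lower. Neither block changed a call among the factors. The cause of these changes was not tested.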
